A study of Homo sapiens with 3 samples.

Results

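The solute carriers of families SLC1 to SLC24 were examined for H3K27ac, the acetylated lysine 27 of histone H3 found at active promoters and enhancers, as mapped by CUT&Tag in the human ovarian carcinoma line A2780. In CUT&Tag an antibody brings a transposase to the mark, and the DNA beside it is cut, tagged and sequenced. Members were the protein-coding genes whose symbol is SLC, a family number from 1 to 24 and a letter, and 189 of 19974 protein-coding genes on chromosomes 1 to 22 and X fitted that rule. The 189 genes fell into 23 families. Of these, 3 carry such a symbol but are not carriers: SLC2A4RG, a regulator of SLC2A4, SLC4A1AP, an adaptor named for binding SLC4A1, and SLC7A6OS, the opposite-strand neighbour of SLC7A6. The 3 libraries formed 3 groups of 1. BPP was H3K27ac in cells treated with the BPP peptide, a competitor for the phosphorylation site of BIN2 according to the study's design. CTR was H3K27ac in the control cells, whose treatment is not given in the sources used here. All cells were grown in DMEM with serum, with no other genotype or agent given in the labels. IgG was a library from A2780 cells made with a non-specific antibody, the background.

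Solute carriers move small molecules and ions across membranes by facilitated diffusion, cotransport or exchange. The families are grouped by sequence and broadly share substrates. SLC2 carries sugars, SLC7 with its SLC3 heavy subunits carries amino acids, SLC16 carries lactate and other monocarboxylates, and SLC4, SLC8, SLC9, SLC12 and SLC24 carry inorganic ions. Many members are restricted to kidney, liver, intestine or neurons, whereas SLC2A1, SLC7A5, SLC1A5 and SLC16A1 supply glucose and amino acids or handle lactate in most dividing cells.

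The lists used held 17841 BPP, 14836 CTR and 7701 IgG peaks. Read depth is unknown, so the lengths of the lists were not taken as amounts of the mark, and a missing peak can be one that narrowly failed the threshold of the caller. No difference between BPP and CTR had a replicate check, and no test between them was possible. A range after a share is its 95% Wilson interval, and the limit given with a count of 0 is 3 counts of the total. Both cover counting error and treat genes as independent. For each peak the authors give a fold over background and a −log10 q, which describe that peak within its list, and differences between lists in these values were not read as changes. Of 8 markers of ovarian carcinoma and epithelium, KRT8 and KRT18 had a peak within 1 kb of a gene end in both H3K27ac lists, MSLN had one in BPP and not CTR, and PAX8, WT1, EPCAM, KRT7 and MUC16 had no H3K27ac peak at their ends or over their span.

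Peaks at the ends of these carrier genes were sparse. A peak lay within 1 kb of either end of the gene, called a gene-end peak here, for 32 of 189 members in BPP (16.9%, 12.3 to 22.9). It did so for 21 members in CTR (11.1%, 7.38 to 16.4) and for 3 in IgG (1.59%, 0.541 to 4.56). Over all protein-coding genes the same rule called 30.6% in BPP, 31.2% in CTR and 2.13% in IgG. Both H3K27ac intervals of the carriers lay below the share of all genes, whereas the IgG interval included it. Both lists marked 15 members (7.94%, 4.87 to 12.7, against 23.6% of all genes). BPP and not CTR marked 17 (8.99%, 5.69 to 13.9, against 7.03%), and CTR and not BPP marked 6 (3.17%, 1.46 to 6.75, against 7.57%). Among the 38 members marked in either list, 44.7% were BPP only (30.1 to 60.3) and 15.8% CTR only (7.44 to 30.4), against 18.4% and 19.8% of the 7628 marked genes in all. Without the 3 genes that are not carriers, 16.1% of 186 members were marked in BPP and 10.8% in CTR.

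**Figure D1:**
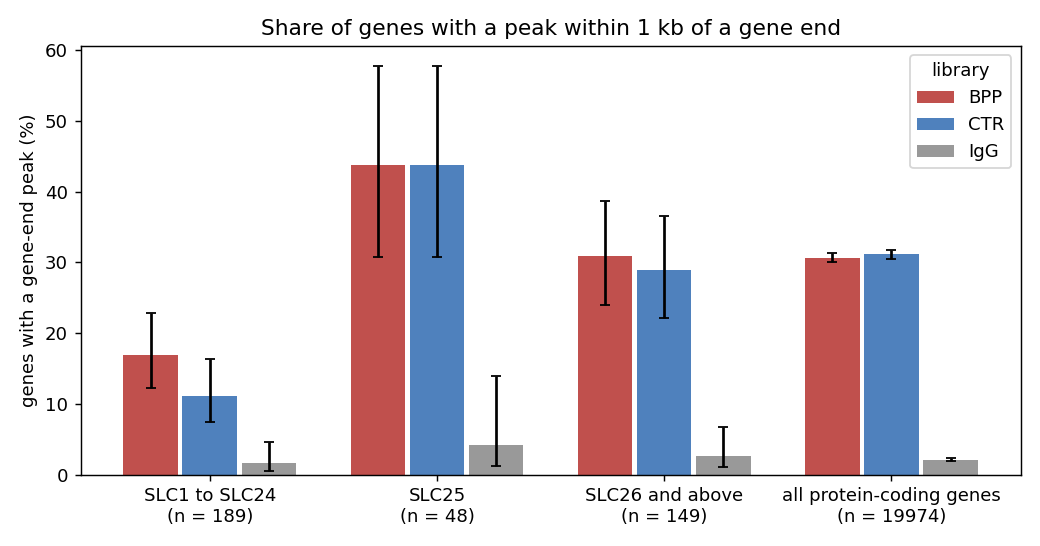
Percent of genes with a peak within 1 kb of either gene end (y axis) in BPP, CTR and IgG for SLC1 to SLC24 (189 genes), SLC25 (48), SLC26 and above (149) and all protein-coding genes (19974). Bars are shares and error bars are 95% Wilson intervals over genes. SLC1 to SLC24 stand at 16.9% in BPP and 11.1% in CTR, and all genes at 30.6% and 31.2%.

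The other carrier families had higher shares. SLC26 and above had gene-end peaks in 30.9% of 149 genes in BPP (24 to 38.7) and 28.9% in CTR (22.2 to 36.6). The mitochondrial carriers of SLC25 had them in 43.8% of 48 genes in BPP and in 43.8% in CTR (30.7 to 57.7 in each). The interval of SLC1 to SLC24 did not reach that of SLC26 and above in either list. Members were longer by median, with a span of 41.4 kb against 24.2 kb for all protein-coding genes, and held fewer H3K27ac peaks per length. Peaks within 1 kb outside a gene were counted without adding to its length, and a peak at neighbouring genes counted for each. The density therefore depends on gene length as well. The density of peaks at the ends or over the span was 7.59 per Mb of gene in BPP and 4.94 in CTR, against 11.8 and 9.73 over all genes. IgG density was 2.51 per Mb in the members and 2.91 over all genes.

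The 38 members marked at an end in BPP, CTR or both were spread over 17 families. None of the 25 members of SLC1, SLC11, SLC13, SLC14, SLC15 and SLC18 had one. In the large families of organic ion carriers (SLC22) and of neurotransmitter and amino acid carriers (SLC6), 1 of 21 and 1 of 19 members were marked. SLC2 had 6 of 15, SLC16 had 5 of 14, and SLC7 and SLC9 had 4 of 14 each. By the same rule, 7628 of the 19974 protein-coding genes were marked in either list. The families are small, and differences between them were not tested. By substrate, the classes were small, and 23.6% of all genes were marked in both lists, 7.03% in BPP only and 7.57% in CTR only. Ion carriers had 3 members marked in both lists, 7 in BPP only and 1 in CTR only, of 45. Amino acid and peptide carriers had 3, 1 and 2 of 47, and sugar and sodium-coupled carriers 3, 3 and 2 of 27. Carboxylate and bile acid carriers had 3, 3 and 1 of 26, vitamin, urea and organic ion carriers 2, 1 and 0 of 29, and phosphate and vesicle-loading carriers 1, 2 and 0 of 15.

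**Figure D2:**
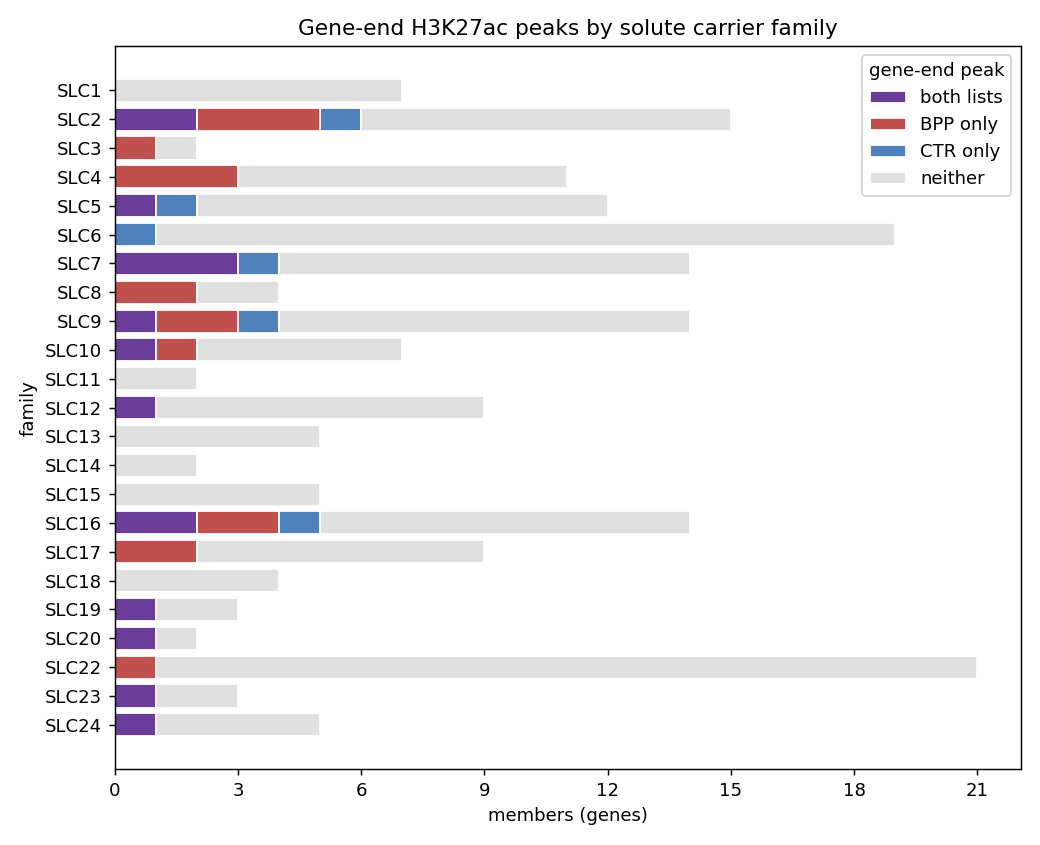
Number of members in each family (x axis, genes) by where a gene-end H3K27ac peak was listed: both lists, BPP only, CTR only or neither. Most members of every large family are in the neither class, with 20 of 21 in SLC22 and 18 of 19 in SLC6.

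A gene end may be the start or the far end of transcription, so starts annotated in RefSeq were examined next. The promoter table held 145 of the 189 members. A peak lay within 1 kb of an annotated start for 20 of 145 members in BPP (13.8%, 9.11 to 20.3) and 19 in CTR (13.1%, 8.55 to 19.6), and for 0 of 145 in IgG, which allows a share of up to 2.07%. The same rule called 32.3% of 15812 protein-coding genes in BPP, 33.9% in CTR and 1.61% in IgG. Both lists marked the starts of 12 members (8.28%, against 25.9% of all genes), BPP only those of 8 (5.52%, against 6.43%) and CTR only those of 7 (4.83%, against 8.08%). The share of the carriers was below that of all genes at starts too, in both lists, while the 17 against 6 seen at gene ends was 8 against 7 at starts. For the same 145 members, gene ends gave 11 in BPP only and 5 in CTR only.

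The position of the peaks was examined for the genes with a strand in the table. The start end here is the outer end of the gene on its strand, which need not be near an annotated start. Among the BPP-only members, 7 of 11 had the peak at the start end (63.6%, 35.4 to 84.8) and 4 at the far end only, against 79.7% at the start end for all BPP-only genes. The 4 far-end members were SLC2A1, SLC8A2, SLC8B1 and SLC9A5. All 5 CTR-only members with a strand had it at the start end, with 56.6% as the lower bound, against 93.2% of all CTR-only genes. Of the members marked in both lists, 10 of 12 had the start end marked in each list (83.3%), against 94.9% of all such genes in BPP and 95.4% in CTR. SLC16A3 was among these 10, though its start-end summits were not within 1 kb of an annotated start. Among the gene-end peaks, 17 of 37 BPP peaks overlapped a CTR peak (45.9%, 31.0 to 61.6, against 69.9% for the gene-end peaks of all genes). Of the 23 CTR peaks, 18 overlapped one of BPP (78.3%, 58.1 to 90.3, against 69.6%).

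**Figure D3:**
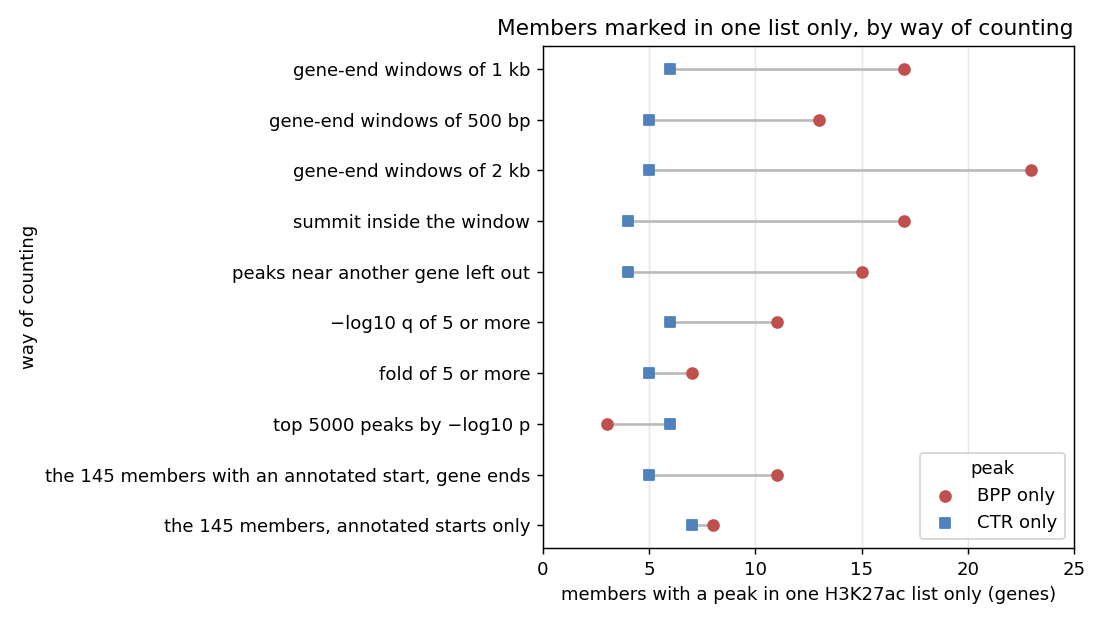
Members with a peak in BPP and not CTR (circles) and in CTR and not BPP (squares), in genes on the x axis, for 10 of 11 ways of counting on the y axis. The count without the 3 genes that are not carriers, 16 against 6, is not drawn. BPP only is the larger in 10 of the 11, by 17 to 6 with gene-end windows of 1 kb and by 8 to 7 at annotated starts, and is the smaller, 3 against 6, with the 5000 highest peaks of each list.

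The split also depended on which peaks were admitted. With the 5000 peaks of highest −log10 p in each list, which makes the lists equally long, 3 members were marked in BPP only (1.59%, 0.541 to 4.56, against 4.4% of all genes) and 6 in CTR only (3.17%, 1.46 to 6.75, against 5.84%). CTR only was thus the larger for the members, as it was for all genes. With peaks of −log10 q of 5 or more, 11 members were BPP only (5.82%, against 6.89% of all genes) and 6 CTR only (3.17%, against 7.2%). With fold of 5 or more, 7 were BPP only (3.7%, against 4.17%) and 5 CTR only (2.65%, against 6.35%). Under none of these 3 settings was the members' share in BPP only above that of all genes. Median −log10 q of the strongest gene-end peak was 5.22 (3.78 to 11.4) for the 17 BPP-only members, against 6.49 for the 1405 such genes in all. For the 6 CTR-only members it was 7.35 (5.93 to 10.5), against 7.07 for 1513 genes. The 15 members marked in both had medians of 9.74 in BPP and 11.2 in CTR, against 11.4 and 10.8 for all 4710 such genes.

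**Figure D4:**
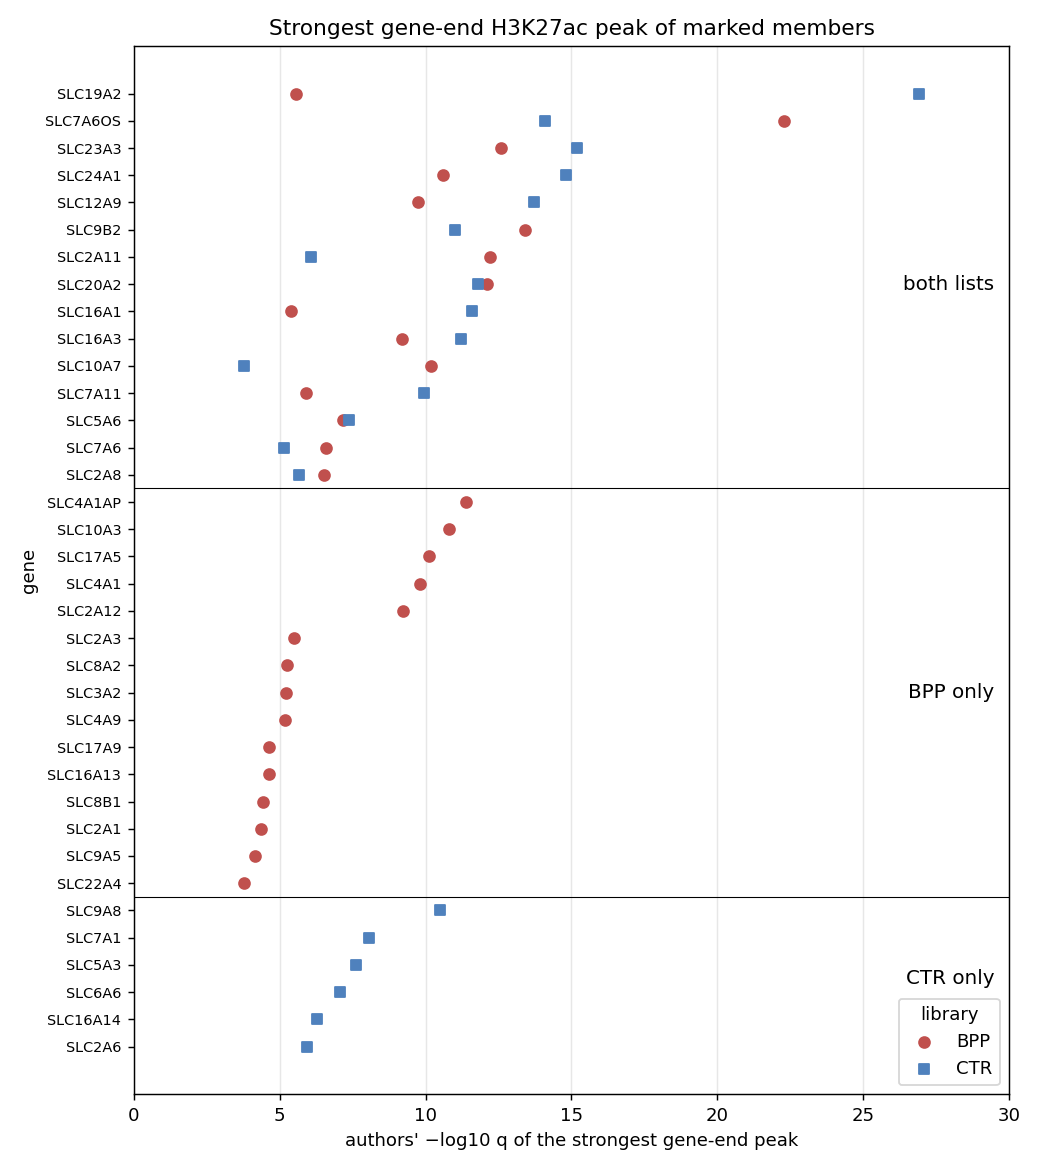
The authors' −log10 q (x axis) of the strongest gene-end peak of 36 of the 38 marked members (y axis), with BPP as circles and CTR as squares and the members grouped by the lists that mark them. The BPP-only members shown lie between 3.78 and 11.4 and the 6 CTR-only members between 5.93 and 10.5, while SLC19A2 reaches 26.9 in CTR and SLC7A6OS 22.3 in BPP.

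Promoters are shown for 7 members in which an H3K27ac peak overlapped, wholly or in part, the 300 bases around an annotated start. The overlap was in both lists, in BPP only or in CTR only. Sequences are from RefSeq, assembly GRCh38.p14, from 250 bases before to 50 after the start, written 5′ to 3′ on the strand of the gene. Capitals mark matches, on either strand, to CACGTG (the E-box), to CCAAT (the CCAAT box), to GGGCGG (the GC box), to TGACGTCA (the cAMP response element), to TGATGNAA (an amino acid response element) or to TATAAA (the TATA box), and neighbouring matches run together. The first, at an internal start of SLC3A2 (chr11:62880646-62880945, plus strand), lay under the member peak of highest −log10 q in BPP. These 7 were picked after their peaks were seen. SLC19A2 (chr1:169485895-169486194, minus strand) and SLC24A1 (chr15:65611100-65611399, plus strand) were also covered in both lists. SLC2A12 (chr6:134052575-134052874, minus strand) and an internal start of SLC1A5 (chr19:46784765-46785064, minus strand) were overlapped in BPP only. SLC9A8 (chr20:49812578-49812877, plus strand) and SLC2A6 (chr9:133479050-133479349, minus strand) were overlapped in CTR only. The SLC2A12 peak ended at base 134052698 and the SLC2A6 peak at base 133479109, so the upstream part of each of those sequences lay outside the peak. The CCAAT boxes of SLC2A6 were in that part, as were its GC boxes except the last, which crossed the edge of the peak.
SLC3A2: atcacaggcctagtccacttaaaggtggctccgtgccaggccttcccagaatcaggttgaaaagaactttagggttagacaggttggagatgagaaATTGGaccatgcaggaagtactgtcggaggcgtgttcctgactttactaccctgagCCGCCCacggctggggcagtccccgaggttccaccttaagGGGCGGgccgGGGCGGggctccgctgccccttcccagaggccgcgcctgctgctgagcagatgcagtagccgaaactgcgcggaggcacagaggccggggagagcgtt
SLC19A2: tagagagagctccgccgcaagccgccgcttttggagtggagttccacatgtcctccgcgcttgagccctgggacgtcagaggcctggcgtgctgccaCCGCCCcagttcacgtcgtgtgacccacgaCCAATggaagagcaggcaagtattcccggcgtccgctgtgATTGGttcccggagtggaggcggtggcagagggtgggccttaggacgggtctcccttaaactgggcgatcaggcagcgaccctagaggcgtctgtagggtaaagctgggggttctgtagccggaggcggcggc
SLC24A1: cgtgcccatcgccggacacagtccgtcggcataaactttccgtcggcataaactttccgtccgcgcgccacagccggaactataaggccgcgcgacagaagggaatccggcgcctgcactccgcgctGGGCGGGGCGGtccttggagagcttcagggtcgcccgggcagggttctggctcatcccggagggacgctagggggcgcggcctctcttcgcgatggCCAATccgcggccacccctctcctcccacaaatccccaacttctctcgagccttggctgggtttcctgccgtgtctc
SLC2A12: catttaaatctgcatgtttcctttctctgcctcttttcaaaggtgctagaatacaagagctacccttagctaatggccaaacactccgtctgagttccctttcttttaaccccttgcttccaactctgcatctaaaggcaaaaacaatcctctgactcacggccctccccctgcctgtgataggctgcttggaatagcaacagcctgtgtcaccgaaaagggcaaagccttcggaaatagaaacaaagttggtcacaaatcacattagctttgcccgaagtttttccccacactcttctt
SLC1A5: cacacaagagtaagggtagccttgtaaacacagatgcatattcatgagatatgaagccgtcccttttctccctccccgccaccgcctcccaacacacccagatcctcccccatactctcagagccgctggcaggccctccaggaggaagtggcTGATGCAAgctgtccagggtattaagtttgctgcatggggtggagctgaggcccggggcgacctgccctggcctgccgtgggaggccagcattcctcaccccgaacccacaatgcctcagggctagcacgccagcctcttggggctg
SLC9A8: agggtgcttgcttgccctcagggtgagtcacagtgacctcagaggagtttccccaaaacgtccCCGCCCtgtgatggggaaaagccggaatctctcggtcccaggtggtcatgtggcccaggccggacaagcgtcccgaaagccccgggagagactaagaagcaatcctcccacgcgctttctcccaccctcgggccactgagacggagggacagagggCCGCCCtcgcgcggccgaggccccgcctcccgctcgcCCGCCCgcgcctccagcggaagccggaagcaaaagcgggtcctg
SLC2A6: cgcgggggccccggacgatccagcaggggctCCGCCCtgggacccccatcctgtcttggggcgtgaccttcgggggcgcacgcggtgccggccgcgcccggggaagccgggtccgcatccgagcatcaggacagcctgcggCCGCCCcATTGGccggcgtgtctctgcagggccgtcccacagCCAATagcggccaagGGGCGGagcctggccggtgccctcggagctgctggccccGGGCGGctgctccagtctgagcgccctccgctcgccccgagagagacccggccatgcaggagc

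The promoters that a peak overlapped were richer in CG dinucleotides than the rest. The 24 promoters of 19 members that an H3K27ac peak overlapped held a median of 24 CG dinucleotides in 300 bases, and the other 178 held 11. Over all protein-coding genes the medians were 25 and 16. In the sequences shown, SLC2A12 had 5 and the internal SLC1A5 start had 9, while SLC24A1 and SLC2A6 had 33 each. The GC box was found in 14 of the 24 (58.3%), in 43.8% of the 178 others, in 68.8% of the 6299 overlapped promoters of all protein-coding genes and in 56.3% of all 22132. The CCAAT box was found in 11 (45.8%), in 30.3% of the 178, in 38.6% of the 6299 and in 34.6% of all. The amino acid response element occurred in 2, at internal starts of SLC1A5 and SLC3A2 (8.33%), in 6.74% of the 178, in 1.32% of the 6299 and in 2.70% of all promoters. The SLC3A2 start with this element is another internal start (chr11:62881449-62881748), not the one shown. The E-box occurred in 1 (SLC4A2), in 9.55% of the 178, in 9.6% of the 6299 and in 8.34% of all. Neither the cAMP response element nor the TATA box was found in the 24, where the limit for each is 3 counts of 24. The cAMP response element was found in 0.562% of the 178, 3.68% of the 6299 and 2.26% of all. For the TATA box the shares were 10.1%, 4.35% and 9.46%. Promoters of 1 gene can overlap, as those of SLC19A2 and some of SLC2A11 did. The same CCAAT and GC boxes of SLC19A2 were therefore counted more than once. A match is a description of the letters in these windows.

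Among amino acid carriers, SLC3A2 encodes the heavy subunit that brings SLC7A5 and related light subunits to the cell surface. Its highest peak lay at internal starts and was present in both lists, at fold 5.00 and −log10 q 31.5 in BPP (chr11:62880653-62882134) and at fold 5.48 and −log10 q 25.6 in CTR (chr11:62880476-62881946). BPP also listed peaks at the outermost start (fold 2.84, −log10 q 4.54) and at the far end (fold 3.37, −log10 q 5.22). Gene ends alone therefore put SLC3A2 among the BPP-only members, while its annotated starts were marked in both.

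SLC7A5, the light subunit that exchanges leucine and other large neutral amino acids, had no peak at its ends. BPP listed 3 peaks inside the gene, with folds of 3.01, 2.33 and 3.74, and CTR listed 2, with folds of 2.78 and 2.34. The first 2 BPP peaks overlapped the 2 CTR peaks, and the first had the highest −log10 q of the 3 in BPP (chr16:87852984-87853989, −log10 q 15.4). SLC7A11, the cystine and glutamate exchanger that supplies glutathione synthesis, had 1 peak at its higher-coordinate end in each list, with folds of 4.91 in BPP (chr4:138241838-138242285) and 6.77 in CTR (chr4:138241854-138242364). The pair of peaks covered nearly the same bases.

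SLC1A5, a carrier of glutamine and other neutral amino acids, was marked at internal starts. BPP listed 2 peaks, with folds of 3.68 (chr19:46784497-46785188) and 4.30 (chr19:46785842-46786944), and the second overlapped a CTR peak of fold 4.22 (chr19:46786095-46787130). The other 6 genes of SLC1 had no H3K27ac peak at their ends or over their span, and SLC1A2 and SLC1A6, carriers of glutamate, had 1 IgG peak each.

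SLC7A6, a light subunit for cationic and neutral amino acids, had start-end peaks of fold 3.57 in BPP and 3.29 in CTR. Its neighbour SLC7A6OS had the strongest gene-end peak of any member in BPP, at fold 7.93 and −log10 q 22.3 (chr16:68310727-68311470), and a fold of 6.23 in CTR (chr16:68310731-68311486). That peak also lay within 1 kb of an end of PRMT7. SLC7A1, a cationic amino acid carrier, had a start-end peak in CTR only (chr13:29594758-29595146, fold 5.45), with its summit 723 bp downstream of its start. SLC6A6, the taurine carrier, had a CTR-only gene-end peak of fold 4.92 that also reached an end of GRIP2, while a peak inside the gene was shared, with folds of 3.97 in BPP and 3.49 in CTR. SLC6A11, a GABA carrier, had a peak inside the gene with folds of 8.44 in BPP (chr3:10873437-10874053) and 9.38 in CTR (chr3:10873412-10873983), the highest folds of any member peak in each list.

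Among sugar carriers, SLC2A11, a facilitative carrier of fructose and glucose, was marked at its start in both lists, with folds of 5.40 in BPP (chr22:23856956-23858410) and 4.14 in CTR (chr22:23856972-23857430). SLC2A8, an intracellular glucose carrier, had start-end peaks of fold 4.32 in BPP and 3.95 in CTR. SLC2A12, another facilitative glucose carrier, had a peak over its start in BPP only (chr6:134052251-134052698, fold 6.53, −log10 q 9.21). SLC2A6, a lysosomal hexose carrier, had one over its start in CTR only (chr9:133478515-133479109, fold 3.76, −log10 q 5.93).

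SLC2A1, the main glucose carrier of most dividing cells, had no peak within 1 kb of its annotated starts in any list. Its BPP-only gene-end peak lay at the far end (chr1:42924456-42924855, fold 3.33, −log10 q 4.34). A peak inside the gene was present in both lists, with folds of 3.69 in BPP (chr1:42952445-42953214) and 3.12 in CTR (chr1:42952148-42952906). SLC2A3, a glucose carrier prominent in neurons, had a BPP-only peak of fold 4.2 at its higher-coordinate end. SLC2A3 and SLC2A14 are near-identical copies, so the placement of their peaks is uncertain.

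SLC5A6, the sodium-dependent carrier of biotin and pantothenate, shared its start peak with the neighbouring ATRAID in both lists, at folds of 3.40 in BPP and 3.85 in CTR, and had a further BPP peak of fold 3.61 at its far end. SLC5A3, the myo-inositol carrier, was CTR only by the window alone. Its CTR peak (chr21:34074445-34074760, fold 5.05) was overlapped by a BPP peak just beyond the window (chr21:34074595-34074945, fold 4.93). The CTR peak also lay within 1 kb of an end of MRPS6.

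Among monocarboxylate carriers, SLC16A3, which exports lactate from glycolytic cells, had 5 BPP peaks and 4 CTR peaks at its ends and over its span, and no IgG peak. At its lower-coordinate end the lists shared a peak of fold 2.65 in BPP (chr17:82217821-82218362) and 3.28 in CTR (chr17:82217905-82218923), and at its far end one of fold 2.69 in BPP (chr17:82240286-82241207) and 3.23 in CTR (chr17:82240502-82241085). The pair at the lower-coordinate end had summits at −10436 bp in BPP and −9998 bp in CTR from the nearest annotated start. By annotated starts SLC16A3 was BPP only. SLC16A1, which carries lactate and pyruvate in either direction, had 2 gene-end peaks in each list, on its higher-coordinate side. The pair nearer the gene had folds of 3.44 in BPP (chr1:112955422-112955975) and 4.61 in CTR (chr1:112955443-112956172). The other pair had folds of 3.33 and 3.47, and each BPP peak overlapped a CTR peak.

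Other SLC16 members were marked in 1 list. SLC16A13 had a BPP peak of fold 3.47. SLC16A14 had a CTR peak of fold 4.65 at its start end, and a BPP peak of fold 4.97 lay within 1 kb of it inside the gene. In SLC10, the family of the bile acid carriers, SLC10A7 had a peak over its start with folds of 6.41 in BPP (chr4:146521903-146522579) and 4.10 in CTR (chr4:146521605-146522173). A second pair far inside SLC10A7 overlapped as well, with folds of 7.07 in BPP and 6.73 in CTR. SLC10A3 had a BPP-only peak of fold 5.00 at its start end (chrX:154489533-154490048).

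The ion carrier families held 7 BPP-only members of 45 (15.6%, 7.75 to 28.8), with SLC4A1AP counted among them by its symbol, and the interval included the 7.03% of all genes. SLC4A1, the anion exchanger of red cells, had a BPP-only peak of fold 5.45 at its lower-coordinate end (chr17:44247612-44247913), and SLC4A9, another member of the bicarbonate family, one of fold 4.04. SLC4A1AP had a BPP-only peak over its start at fold 6.65 and −log10 q 11.4 (chr2:27663234-27664402), which also lay at an end of SUPT7L. SLC9A5, a sodium and proton exchanger, and the sodium and calcium exchangers SLC8A2 and SLC8B1, the last of mitochondria, were marked at the far end only, with folds of 3.87, 4.21 and 3.08. The SLC8B1 peak also lay within 1 kb of an end of TPCN1.

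SLC9B2, a sodium and proton antiporter, had start-end peaks of fold 7.06 in BPP (chr4:103075947-103076804) and 6.23 in CTR (chr4:103075881-103076597), which also reached an end of BDH2. SLC9A8, an exchanger of the Golgi, had a CTR-only peak over its start (chr20:49812221-49813255, fold 5.04, −log10 q 10.5). SLC24A1, a potassium-dependent sodium and calcium exchanger known from rod photoreceptors, was marked over its start with folds of 5.05 in BPP (chr15:65610900-65612095) and 6.49 in CTR (chr15:65610895-65611738). The same peaks lay at an end of INTS14, a subunit of the Integrator complex. SLC12A9, of the cation and chloride cotransporters, was marked at its far end, with folds of 3.69 in BPP and 4.89 in CTR, and these peaks also lay within 1 kb of an end of TRIP6.

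SLC12A7, a potassium and chloride cotransporter, had 4 BPP and 3 CTR peaks inside the gene, and each of the CTR peaks overlapped a BPP peak. SLC11A2, an iron carrier, had a CTR peak beside an internal start (chr12:51025834-51026365, fold 5.26, −log10 q 12.8) and no BPP peak, and SLC12A4, of the same class as SLC12A7, had overlapping peaks near a start, with folds of 3.43 in BPP and 3.53 in CTR. SLC4A2, an anion exchanger, had 3 BPP peaks of fold 2.60 to 3.12 and no CTR peak. Those at chr7:151060611-151061143 and chr7:151061985-151062316 also lay within 1 kb of an end of LOC128092247.

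The vitamin carriers gave the strongest gene-end peak in CTR. SLC19A2, a thiamine carrier, had a peak over its start at fold 8.31 and −log10 q 26.9 in CTR (chr1:169485378-169486203), and a shorter BPP peak overlapped it (chr1:169485826-169486247, fold 4.11, −log10 q 5.56). SLC19A1, the reduced folate carrier, had no gene-end peak but 4 BPP and 3 CTR peaks over its span, of which 2 in BPP and 1 in CTR also lay at an end of COL18A1. The strongest pair had folds of 5.63 in BPP (chr21:45552068-45553253) and 6.29 in CTR (chr21:45552268-45552949). SLC23A3, of the ascorbate carrier family, was marked at its far end with folds of 5.87 in BPP (chr2:219160262-219160976) and 7.32 in CTR (chr2:219160252-219160868), where NHEJ1 also has an end. SLC22A4, a carrier of ergothioneine and carnitine, was the marked member of SLC22, with a BPP-only peak of fold 3.91 at its start end.

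SLC20A2, a sodium and phosphate cotransporter, had a wide peak beyond its higher-coordinate end, with folds of 4.58 in BPP (chr8:42542022-42543403) and 4.51 in CTR (chr8:42541982-42543371). The peaks also lay at an end of SMIM19. SLC17A5, the lysosomal sialic acid exporter, had a BPP-only peak of fold 5.77 and −log10 q of 10.1 at its start end (chr6:73654097-73654640). SLC17A9, a vesicular nucleotide carrier, had a BPP-only peak of fold 2.92. The vesicular amine carriers of SLC18 had no H3K27ac peak at their ends or over their span.

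Beyond the gene ends, 64 members had a BPP peak at the ends or over the span (33.9%, 27.5 to 40.9, against 44.9% of all genes) and 50 a CTR peak (26.5%, 20.7 to 33.2, against 42.3%). An IgG peak was listed for 32 members (16.9%, 12.3 to 22.9, against 14.6%). Of the 189 members, 39 had such a peak in both H3K27ac lists (20.6%, 15.5 to 27, against 34.9% of all genes). It was in BPP only for 25 (13.2%, 9.12 to 18.8, against 10.1%) and in CTR only for 11 (5.82%, 3.28 to 10.1, against 7.4%). Of these, 37 had H3K27ac peaks inside the gene and none at its ends (19.6%, 14.5 to 25.8, against 14.1%). Both lists held such peaks, and the BPP and CTR peaks overlapped, in, among others, SLC3A1, SLC4A5, SLC6A15, SLC13A4 and SLC22A11. Both lists also held them in SLC6A16, SLC9A3, SLC12A3, SLC12A8 and SLC23A2, but there no BPP peak overlapped a CTR peak. BPP alone held peaks inside the gene and none at its ends in SLC2A4, the insulin-responsive glucose carrier, and in SLC4A2, SLC5A1, SLC5A10, SLC7A8, SLC9C2, SLC9D1, SLC15A4, SLC16A5, SLC22A23, SLC23A1 and SLC24A4. CTR alone held them in SLC9A7, a sodium and proton exchanger with 3 peaks of fold 4.06 to 4.69, and in members that included SLC2A13, SLC2A4RG, SLC6A7, SLC6A13, SLC11A2 and SLC22A14. A further 18 members had an IgG peak and no H3K27ac peak (9.52%, 6.11 to 14.6, against 5.85%), and 96 had no peak of any list (50.8%, 43.7 to 57.8, against 41.8%). No IgG peak overlapped any of the 175 H3K27ac peaks at members, which allows a share of up to 1.71%. The same share over all H3K27ac peaks was not computed, so this count is not read as particular to the members. The 3 members with an IgG gene-end peak, SLC2A2, SLC2A14 and SLC22A14, had IgG −log10 q of 2.20, 2.97 and 3.10 and no H3K27ac gene-end peak. For the 151 members without an H3K27ac gene-end peak, the median distance from the gene to the nearest peak was 35.9 kb in BPP and 43.5 kb in CTR. It exceeded 100 kb for 53 members in BPP and 54 in CTR. The medians include 29 members in BPP and 25 in CTR with a peak over the span, counted as no distance. The distances were not computed for other genes, so they are not read as particular to the members.

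Genes that bind or regulate these carriers, together with the ATF4 targets MTHFD2 and ASNS, were counted as a list of 28. Gene-end peaks were present in both lists for 7 (25%, 12.7 to 43.4, against 23.6% of all genes), in BPP only for 2 (7.14%, 1.98 to 22.6, against 7.03%) and in CTR only for 0 of 28, which allows a share of up to 10.7% (against 7.57%). Marked in both were ATF4, which drives transcription of amino acid carriers under stress, its target MTHFD2, TXNIP, which promotes removal of SLC2A1 from the cell surface, OXSR1, a kinase of SLC12 cotransporters, CHP1, a cofactor of sodium and proton exchangers, PDZK1, a scaffold, and CLTRN, a partner of SLC6A19. BPP only were WNK1, a kinase upstream of OXSR1, and ARL6IP5, which binds SLC1A1. BSG and EMB, the chaperones of SLC16 carriers, had no gene-end peak, and BSG had 1 peak inside the gene in each H3K27ac list.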

How the data were processed

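CUT&Tag peak lists of 3 A2780 libraries were used. Groups were taken from the sample titles. Per the labels' protocols, thawed frozen cells were processed with a commercial kit. The submitters' processing notes name build GRCh38.p13 (hg38), deepTools 3.3.0, fastp and Bowtie2 2.4.1. Which peak caller was run, and whether IgG served as its control, is not given in the sources used here. A separate list per library was deposited by the authors, with a fold (a ratio over an undescribed background), −log10 p, −log10 q and a score that restates −log10 p. No −log10 p was below 5. Depth per library is unknown.

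Peaks off chromosomes 1 to 22 and X were not used (28 BPP, 37 CTR and 14 IgG peaks). Genes and coordinates are from RefSeq, GRCh38.p14, which shares chromosome coordinates with the authors' patch release, and are counted from 1. The promoter table held 145 of 189 members and gave strand. Gene-end windows spanned 1 kb to each side of an end, overlap was from 1 bp, and a window can reach a neighbouring gene. Annotated starts had windows of 1 kb to each side. Members, lists, named genes and the promoters shown were chosen with earlier results of these data known, and the promoters after their peaks were seen. The named genes were the highest gene-end peaks of each state, members with IgG gene-end peaks, those with most peaks over the span and 7 carriers of proliferating cells, and other marked members follow, but 4 members that meet this rule are not reported here by name. Alternatives were windows of 500 bp and 2 kb, peak thresholds, equal list lengths, summits, annotated starts, peaks away from other genes, the 186 carriers proper and the 145 members. Values were computed in Python 3.11.15 (pandas 2.3.3, numpy 2.4.6, matplotlib 3.10.9, scipy 1.17.1), and the overlap code was tested on simulated data against bedtools 2.31.1.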

Additional observations from a re-analysis of the deposited data

How the results depend on the processing

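Main counts of members were 32 in BPP, 21 in CTR, 3 in IgG, 15 in both H3K27ac lists, 17 BPP only and 6 CTR only at gene ends, and 64 in BPP and 50 in CTR at ends or span. Of 84 recomputed counts, 61 stayed within 1.5 times of these and 23 did not. With −log10 q of 5 or more, BPP only was 11 and IgG 0. With fold of 5 or more the gene-end counts were 11 in BPP, 9 in CTR, 0 in IgG, 4 in both and 7 in BPP only, and the ends-or-span counts were 22 in BPP and 23 in CTR. With the top 5000 peaks they were 8 in BPP, 11 in CTR, 5 in both and 3 in BPP only, with 18 in BPP and 19 in CTR at ends or span. At annotated starts of 145 members, BPP was 20 (13.8%, against 16.9% of 189 at gene ends), BPP only 8 (5.52%, against 8.99%) and IgG 0. IgG was 0 with windows of 500 bp and 6 with 2 kb. In settings added after seeing the data, leaving out peaks near another gene gave 12 in CTR and 8 in both, and the gene ends of the 145 members with an annotated start gave 11 in BPP only (7.59%). Thresholds and equal list lengths keep fewer peaks by construction, the 145 members are fewer genes, and for the others the cause was not tested. The direction of BPP only against CTR only turned with the top 5000 peaks (3 against 6). Of the 17 BPP-only members, 2 were BPP only there, and of the 6 CTR-only members 1 was CTR only. Overlap of gene-end peaks between lists was among the 61. No paired analysis was possible because each group has 1 library.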
